A study of Mus musculus with 10 samples.

Results

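The first day of SASD, a sleep restriction method in mice, was followed by comparing the blood RNA library taken after 24 h of SASD with the library taken after 6 h, the library at 12 h being the middle point. These are 3 of the 10 libraries of the study, chosen by their labels. Each library came from blood RNA of 3 mice, pooled, and each group had 1 library. The mice were C57/BL6J, their blood was drawn behind the eye under pentobarbital into EDTA tubes, and the cell type is labelled as leukocyte. The groups set side by side were SASD at 6, 12 and 24 h and, for comparison only, sleep deprivation (SD) at 6, 12 and 24 h. No genotype, transgene or drug treatment other than the anaesthetic is labelled for any of them. The sources used here do not give the procedures of SD and SASD, the age of the mice or the hour of sampling. Hours of SASD and hour of day therefore cannot be told apart.

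Platelets have no nucleus and carry RNA made by their parent cells, the megakaryocytes of the marrow. Circulating red cells also lack a nucleus, but the youngest of them, the reticulocytes, still carry RNA for haemoglobin and for the membrane skeleton and lose it as they mature. RNA prepared from blood can therefore hold transcripts of both beside those of white cells. In such bulk RNA, fewer cells of a type and less RNA per cell cannot be told apart.

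Total counts were 11082847, 9559914 and 7825120 read pairs at 6, 12 and 24 h of SASD. Haemoglobin genes took 6.07%, 5.54% and 6.96% of these counts, close to one another, and 4.20% to 6.51% under SD. Of the marker genes of the labelled white cells, 26 of 26 T cell, 22 of 23 B cell and 30 of 31 mature neutrophil genes were measured, and red cell and platelet genes were present as well. Levels are given as CPM, counts brought to a common library size by TMM factors (set separately for SASD and SD), and differences as log2 ratios. A gene was measured where its mean count over the 6 h and 24 h libraries was at least 25, which left 11230 genes. With 1 library per group there was no replicate check and no p-value for any ratio, and the 95% counting intervals (exact Clopper-Pearson), which stand in brackets after each ratio, cover counting error only. On a list of mucous epithelium genes 1 library stood apart. The 6 h library held them at a summed level of 386 CPM. The 12 h and 24 h SASD libraries and the 3 SD libraries held 83.6 to 143 CPM. The list was chosen after its values were seen, so these sums are a description and no independent check. Ratios of 24 h over 12 h, which do not use the 6 h library, are therefore given beside some of the main ones. They are given for the platelet, red cell, nonclassical monocyte, epithelial, interferon-stimulated and clock lists. Other lists have no such ratio beside them. In the 24 h library the ratio also followed exon length, as described in the last results below.

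Over the first day red cell and platelet genes were higher, for the most part by less than 2-fold. Genes of epithelium and connective tissue, on lists chosen after their values were seen, were lower, nearly all by at least 2-fold. Of nonclassical monocyte genes 14 of 17 were lower, 6 of them by at least 2-fold. Of those 6, Fabp4 and Pparg passed the count minimum only through the 6 h library. The summed level of the list in CPM was nearly the same, while that of all measured genes was higher at 24 h. Calls of 2-fold use log2 ratios with a prior count of 2 added, which lie slightly nearer to 0 than the printed ratios of single genes. At 24 h, 51 genes (0.454% of those measured) were at least 2-fold above their level at 6 h and 176 genes (1.57%) at least 2-fold below. The count minimum was set on raw counts, and the 24 h library was the shallower one. A gene seen mainly at 6 h therefore passed it at a lower CPM than a gene seen mainly at 24 h. With a mean count of at least 100 the split was 13 higher and 32 lower. Scaled by total counts alone, the split was 25 higher and 298 lower, so that higher genes made up 7.74% of these calls in place of 22.5%. That scaling moved the median of all genes to -0.16 on the log2 scale and shifted every gene alike. Against the mean of the 6 h and 12 h libraries, 83 genes were higher and 129 lower, and the share of higher genes was 39.2%. Of the 51 higher genes 4 were red cell genes and 0 were platelet genes. Of the 176 lower genes 23 belonged to the epithelial list and 12 to the connective tissue list. At 12 h, 6 genes (0.0534%) were at least 2-fold above and 198 (1.76%) at least 2-fold below 6 h. From 12 h to 24 h, 239 genes (2.13%) were at least 2-fold higher and 158 (1.41%) at least 2-fold lower. These 3 comparisons share their libraries, so their counts are not independent.

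Platelet genes were higher at 24 h of SASD than at 6 h as a group, with small differences in nearly every member. Of 56 genes on the list 54 were measured, and 50 of them were above 0 on the log2 scale, where 50.1% of all genes were. The counting interval lay above a ratio of 1 for 46 members, against 24.5% of all genes, and below 1 for 3, against 18.9%. The median log2 ratio was 0.42, against 0.00 over all genes. With the prior count no member was 2-fold higher, Trpc6 lying just under the line at a log2 ratio of 0.99, and 1, Sparc, was 2-fold lower. With a prior count of 0.5, DESeq2 size factors, upper-quartile scaling or the exon length trend subtracted, 1 platelet gene was 2-fold higher. The summed level of the list was 30371, 31189 and 38887 CPM at 6, 12 and 24 h. Most of the difference thus came after 12 h. All measured genes together summed to 960890, 951910 and 1079000 CPM, which was also highest at 24 h. The platelet median log2 ratio was 0.05 for 12 h over 6 h and 0.35 for 24 h over 12 h.

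**Figure D1:**
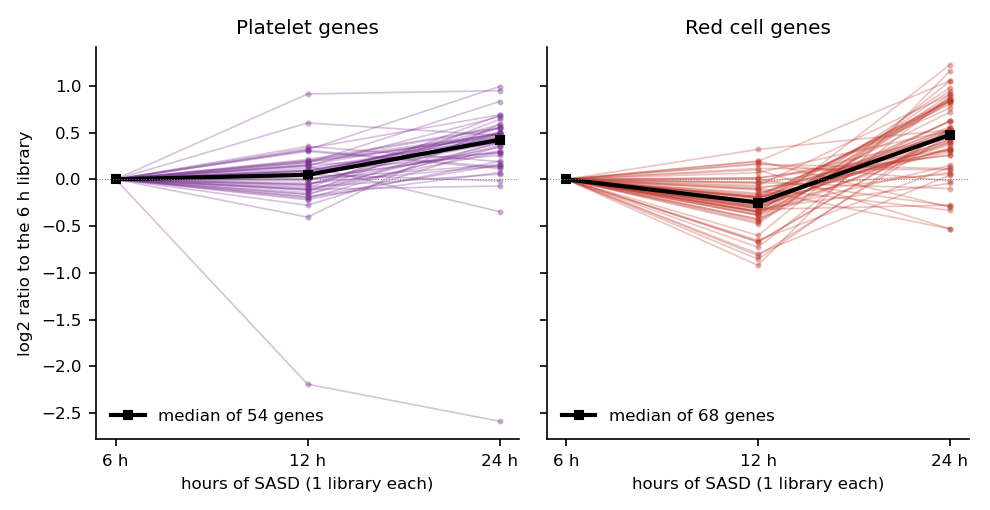
Log2 ratio of each measured platelet gene (left, 54 genes) and red cell gene (right, 68 genes) to its level in the 6 h SASD library, at 6, 12 and 24 h of SASD; each thin line is 1 gene and the thick line the median. The platelet median goes from 0.05 at 12 h to 0.42 at 24 h, the red cell median from -0.25 to 0.48, and the line that ends at -2.59 is Sparc.

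Alpha granules store the proteins that platelets release on activation. Ppbp, the platelet basic protein from which a neutrophil-attracting chemokine is cut, stood at 2103, 2411 and 3068 CPM at 6, 12 and 24 h, a 24 h over 6 h ratio of 1.46 (1.43 to 1.49). Its level was highest at 24 h and lowest at 6 h. Pf4, platelet factor 4, stood at 492, 628 and 561 CPM and was highest at 12 h, with a ratio of 1.14 (1.09 to 1.19) for 24 h over 6 h. Vwf, the von Willebrand factor that tethers platelets to the vessel wall, stood at 973, 909.5 and 1564 CPM, with a ratio of 1.61 (1.57 to 1.65). It was higher at 24 h alone, the 6 h and 12 h libraries being close. Genes of coagulation factors carried in or by platelets were higher as well, F5 with a log2 ratio of 0.40 and F13a1, which cross-links fibrin, with 0.59. F13a1 was lowest at 12 h, at 327, 247 and 493 CPM over the 3 times. Mmrn1, which binds factor V, had a log2 ratio of 0.56, clusterin (Clu) 0.39 and Srgn, a granule proteoglycan, 0.28. Nrgn had 0.14 and Thbs1, thrombospondin, -0.07, the latter at 1405, 1303 and 1337 CPM and so nearly level. Sparc, a matrix protein made by connective tissue as well as stored in platelets, had 60, 10 and 5 counts, a log2 ratio of -2.59. Its ratio was the only one of the list under -1, and it is also on the connective tissue list described below.

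Receptors of the platelet surface were higher in 18 of 19 measured members, with a median log2 ratio of 0.44. Itga2b and Itgb3 encode the 2 chains of the fibrinogen receptor. Itga2b stood at 2345, 2255 and 3431 CPM, a ratio of 1.46 (1.44 to 1.49), and Itgb3 at 1199, 1253 and 1619 CPM, a ratio of 1.35 (1.32 to 1.38). Both were highest at 24 h, with 6 h and 12 h close to each other. Of the von Willebrand factor receptor, Gp1ba had a log2 ratio of 0.35, Gp5 0.50 and Gp9 0.15. Gp1bb, the remaining chain, had 6, 11 and 3 counts, too few to be measured. Jam3, with 3, 1 and 4 counts, was the other member left out. The collagen receptor Gp6 stood at 239.8, 265 and 382 CPM, a ratio of 1.59 (1.51 to 1.68), and Itga2, of the other collagen receptor, had a log2 ratio of 0.48. Clec1b, the podoplanin receptor, had 0.49. The ADP and ATP receptors P2ry12, P2ry1 and P2rx1 had 0.41, 0.40 and 0.48. Selp, P-selectin, which moves to the surface on activation, stood at 20.8, 23.5 and 37.2 CPM and had the highest ratio of the receptors, 1.79 (1.50 to 2.14). Tbxa2r, the thromboxane receptor, was the only receptor below 0, at 33.6, 37.1 and 26.4 CPM and a ratio of 0.786 (0.657 to 0.937). Its interval lay below 1, while those of 17 other receptors lay above 1.

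Enzymes and signalling proteins were higher in 11 of 12 members, with a median of 0.35. Ptgs1 and Tbxas1, which make thromboxane from arachidonic acid, both had a log2 ratio of 0.44, and Alox12, the 12-lipoxygenase of platelets, had 0.51. The thromboxane enzymes were thus higher at 24 h while the gene of the thromboxane receptor was lower. Rasgrp2, which links calcium to integrin activation, stood at 675, 698 and 667 CPM with a ratio of 0.989 (0.953 to 1.02), an interval that holds 1. Cytoskeletal genes were higher in 6 of 6 members, with a median of 0.52. Tubb1, the tubulin of the platelet rim, stood at 1061, 949 and 1366 CPM, a log2 ratio of 0.36. The largest ratios of the list were those of Trpc6, a cation channel grouped with these genes, at 2.01 (1.58 to 2.56) without the prior count, and Tuba8, a tubulin, at 1.95 (1.53 to 2.49). They came at different steps: Trpc6 stood at 10.9, 13.6 and 21.9 CPM and Tuba8 at 10.8, 20.5 and 21.0 CPM, the latter being reached by 12 h. Both overlap another annotated gene, and the counting did not use strand. Megakaryocyte transcription factors had a median of 0.31, and for 3 of 6, Zfpm1, Nfe2 and Fli1, the interval lay above 1. Gata1 had a ratio of 1.05 (0.893 to 1.24) and Gfi1b of 1.04 (0.758 to 1.42), intervals that hold 1.

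Under SD the platelet genes stood the other way. Their median log2 ratio of 24 h over 6 h was -0.38, with 6 of 54 above 0, where 46.7% of all genes were above 0. The summed level was 26129, 28888 and 19605 CPM at 6, 12 and 24 h of SD. For 46 of 54 members SASD and SD had opposite signs, which held for 49.8% of all genes. Itga2b went from 1784 to 1267 CPM under SD and Ppbp from 1952 to 1336 CPM. Whether the methods differ was not tested, since each value rests on 1 library.

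**Figure D2:**
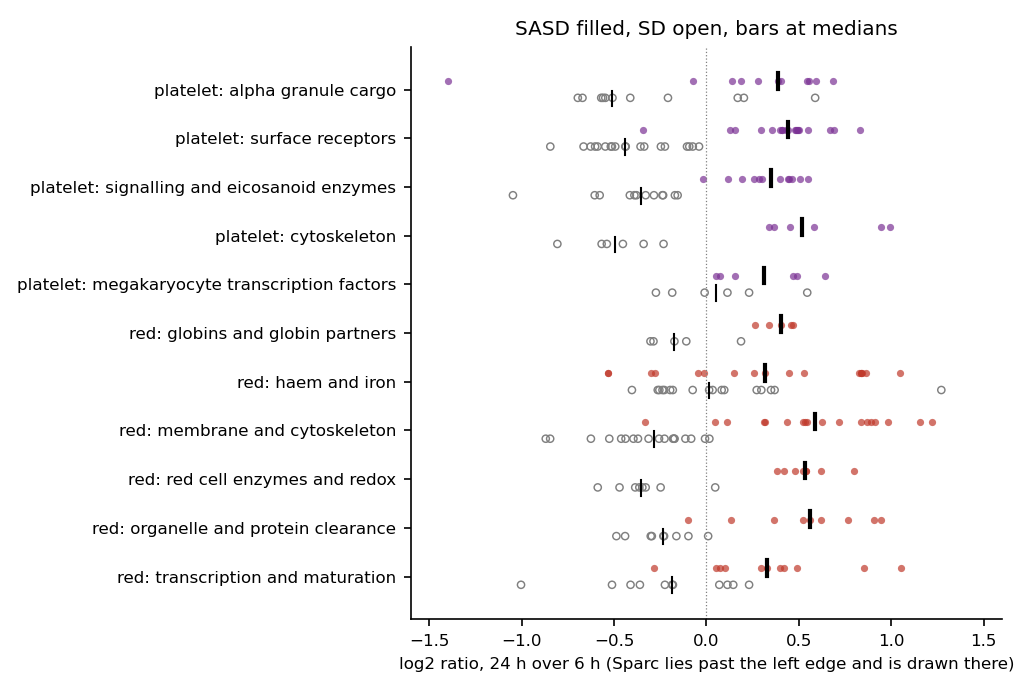
Log2 ratio of 24 h over 6 h (x axis) for measured platelet and red cell genes by role (y axis), filled points for SASD and open points for SD, 1 point per gene and a bar at each median. The SASD medians run from 0.31 to 0.59 over the roles and the SD medians from -0.51 to 0.05, and Sparc, at -2.59, is drawn at the left edge.

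Red cell genes were also higher at 24 h than at 6 h, but their level dipped at 12 h. Of 79 genes on the list 77 were in the table, Ahsp and Rhex not being matched, and 68 were measured. Of these, 59 were above 0 for 24 h over 6 h, the interval lay above 1 for 49 and below 1 for 3, and 4 were at least 2-fold higher (Rhag, Dmtn, Tspo2 and Hemgn), none 2-fold lower. The shares over all genes are those given for platelets, and 0.454% for 2-fold higher. The median log2 ratio was 0.48. At 12 h the median ratio to 6 h was -0.25, with 57 of 68 below 0, against 46.6% of all genes. From 12 h to 24 h it was 0.76. The 12 h library had the lowest of the 3 levels in 54 of 68 genes, against 31.1% of all genes. Summed levels were 85169, 74478 and 118500 CPM, beside 960890, 951910 and 1079000 CPM for all measured genes.

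The 4 genes at 2-fold had few to moderate counts. Rhag, the ammonia channel of the Rh complex in the red cell membrane, had 36, 24 and 55 counts at 6, 12 and 24 h, a ratio of 2.43 (1.57 to 3.80). Dmtn, dematin, which bundles actin in the membrane skeleton, had 117, 53 and 166 counts, a ratio of 2.25 (1.77 to 2.88). Tspo2, a cholesterol-binding relative of the mitochondrial translocator protein, had 222, 127 and 291 counts, a ratio of 2.08 (1.74 to 2.49). Hemgn, hemogen, a nuclear protein of blood precursors, had 50, 50 and 67 counts, a ratio of 2.13 (1.45 to 3.13). All 4 were highest at 24 h, and 3 of them were lowest at 12 h, Hemgn being lowest at 6 h. Just under the 2-fold line lay Slc4a1 at a log2 ratio of 0.98 and Trim10 at 0.95.

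The sequences before the start sites of these genes are shown because GATA1 drives red cell genes through short GATA sites. The 250 bases before each start were read from RefSeq on GRCm38.p6, 5′ to 3′ on the gene's strand. Capitals mark a match on either strand to AGATAA or to the forms that begin with T, end with G or do both. Rhag is on the plus strand (chr17:40810899-40811148), Hemgn on the minus strand (chr4:46404184-46404433) and Tspo2 on the minus strand (chr17:48451502-48451751). Dmtn had no matching entry.
Rhag: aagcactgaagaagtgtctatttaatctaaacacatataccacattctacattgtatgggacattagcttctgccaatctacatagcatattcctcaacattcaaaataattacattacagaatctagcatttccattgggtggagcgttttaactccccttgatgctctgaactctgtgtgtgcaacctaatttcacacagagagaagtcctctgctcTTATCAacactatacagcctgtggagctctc
Hemgn: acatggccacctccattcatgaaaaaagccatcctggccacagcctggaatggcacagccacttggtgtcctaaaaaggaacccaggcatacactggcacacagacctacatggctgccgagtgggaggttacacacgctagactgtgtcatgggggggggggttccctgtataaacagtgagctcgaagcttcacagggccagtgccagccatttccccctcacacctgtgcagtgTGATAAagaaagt
Tspo2: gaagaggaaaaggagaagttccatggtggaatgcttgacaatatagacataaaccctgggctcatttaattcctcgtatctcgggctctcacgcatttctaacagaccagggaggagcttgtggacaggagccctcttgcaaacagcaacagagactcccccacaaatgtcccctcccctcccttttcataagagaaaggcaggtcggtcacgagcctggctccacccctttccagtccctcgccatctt
Rhag and Hemgn each had 1 match and Tspo2 had 0 in this window. Of 27025 promoter windows of this length, 27.1% held a match. Among measured red cell genes with an entry 20 of 51 (39.2%) held one, and among measured platelet genes 8 of 43 (18.6%). For CCACACCC, a site of the red cell factor KLF1, searched on both strands, the shares were 3.19% of all windows, 2 of 51 red cell genes and 0 of 43 platelet genes. A match is a run of letters and not a shown binding site.

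Genes of the membrane and its skeleton had the highest median of the red cell roles, 0.59, with 17 of 18 members above 0. Slc4a1, band 3, the anion exchanger that anchors the skeleton, stood at 687, 526 and 1357 CPM, a ratio of 1.97 (1.92 to 2.03). Ank1, ankyrin, which ties band 3 to spectrin, stood at 54.9, 33.1 and 102 CPM, a ratio of 1.86 (1.67 to 2.07). Epb41, protein 4.1, stood at 3102, 2284 and 5543 CPM, a ratio of 1.79 (1.76 to 1.81). All 3 were lowest at 12 h and highest at 24 h. Sptb, the beta chain of spectrin, had a log2 ratio of 0.44. From 12 h to 24 h the median of this role was 1.11. Slc14a1, the urea transporter, was the one member below 0, with a log2 ratio of -0.33. Aqp1, the water channel, had 0.31, Gypc 0.11 and Tmod1, which caps actin, 0.04.

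Globin genes had a median of 0.40, less than that of the membrane genes. Hba-a1 stood at 23161, 19347 and 31836 CPM, a ratio of 1.37 (1.37 to 1.38), and Hbb-bs at 26945, 26163 and 32336 CPM, a ratio of 1.20 (1.19 to 1.21). Hba-a2 had a log2 ratio of 0.34 and Hbb-bt of 0.47. Each pair of alpha and beta genes is nearly identical in sequence, and pairs of reads that fit several places were not counted, so the split within a pair is uncertain. Of the embryonic genes, Hbb-y had 8, 2 and 8 counts, Hba-x 1 count at 12 h alone and Hbb-bh1 0 counts in all 3 libraries, where a count of 0 allows up to 3, and none was measured.

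Haem and iron genes were divided. Alas2, the first enzyme of haem synthesis in red cells, stood at 4011, 3372 and 7152 CPM, a ratio of 1.78 (1.76 to 1.81), and Fech, the last enzyme, at 1117, 880.4 and 1977 CPM, a ratio of 1.77 (1.73 to 1.81). Slc25a37, mitoferrin, which brings iron into mitochondria, stood at 1201, 1017 and 2183 CPM, a ratio of 1.82 (1.78 to 1.86). These were highest at 24 h and lowest at 12 h. Of the enzymes between these, Alad had a log2 ratio of -0.28, Uros -0.30 and Urod 0.15, with intervals that hold 1. Cpox was higher, with a ratio of 1.45 (1.20 to 1.74), and Ppox lower, with 0.691 (0.584 to 0.815). Tmem14c, which moves the haem precursor within mitochondria, had 0.69 (0.574 to 0.827). Tfrc, the transferrin receptor that reticulocytes lose as they mature, stood at 36.3, 36.7 and 45.3 CPM, a ratio of 1.25 (1.07 to 1.44). Ncoa4, which releases iron from ferritin, had a log2 ratio of 0.84. Over the 17 members of this role the median was 0.32, with 8 intervals above 1 and 2 below.

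Enzymes and redox genes were above 0 in 8 of 8 members, with a median of 0.53, and in all 8 the 12 h library was lowest. Bpgm, which makes the phosphate that loosens oxygen from haemoglobin, stood at 2003, 1702 and 2678 CPM and Car2, carbonic anhydrase, at 316, 179.7 and 442 CPM. Their ratios of 24 h over 6 h were 1.34 (1.31 to 1.36) and 1.40 (1.33 to 1.47). The peroxide-removing Gpx1, Prdx2 and Cat had log2 ratios of 0.54, 0.54 and 0.52. Genes for the clearance of proteins and organelles, by which a reticulocyte becomes a mature cell, had a median of 0.56 and were above 0 in 8 of 9. Ube2o, the ubiquitin ligase that clears ribosomes, stood at 1668, 1200.2 and 3131 CPM, a ratio of 1.88 (1.84 to 1.91). Bnip3l, which marks mitochondria for removal, stood at 1565, 1260.2 and 2406 CPM, a ratio of 1.54 (1.51 to 1.57). Trim10 and Ube2l6 had log2 ratios of 0.95 and 0.76, and Trim58 0.13 and Otub1 -0.10. Transcription and maturation genes had a median of 0.33. E2f2 stood at 178, 141 and 322 CPM, a ratio of 1.81 (1.70 to 1.92), and Bcl2l1, which keeps late precursors alive, had a log2 ratio of 0.42. Tal1 and Gata1 had 0.10 and 0.07, Epor, the erythropoietin receptor, -0.29 from 47, 41 and 24 counts, and Klf1 had 4, 3 and 7 counts and was not measured. Nfe2, Gata1 and Gfi1b are on both the platelet and the red cell list.

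Under SD the red cell genes had a median log2 ratio of -0.23 for 24 h over 6 h, with 51 of 68 below 0 against 53.3% of all genes, and 54 members had opposite signs in SASD and SD. The summed level was 93145, 60656 and 79268 CPM, so 12 h was lowest under SD too. Slc4a1 stood at 928, 540.3 and 793 CPM under SD. The difference between the methods was not tested.

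The 3 SASD libraries allow a test of the slope over time, here on the log2 of hours, which leaves 1 residual degree of freedom and measures departure from a straight line, not spread between replicates. By edgeR's quasi-likelihood test 20 of 12746 genes passed an adjusted p of 0.05, 2 rising (0.0157%) and 18 falling (0.141%), and 696 had an unadjusted p under 0.05. No platelet or red cell gene passed. The rising genes were Fos, with a slope of 0.75 ± 0.12 (SE) log2 units per doubling of hours (adjusted p = 0.0178), and Hsph1, with 0.67 ± 0.11 (adjusted p = 0.0185). Neither passed by DESeq2 (adjusted p = 0.138 and 0.180) or by limma-voom (0.0622 and 0.0593), each of which called 0 rising genes. Of the 18 falling genes DESeq2 called 12 and limma-voom 15, and 5 were called with the slope on linear hours. The fall with the lowest adjusted p was that of Emp1, an epithelial membrane protein, at -1.62 ± 0.15 (adjusted p = 0.000582, but 0.0936 on linear hours), and 14 of the 18 were on the epithelial list, which was put together after these values had been seen.

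That list held 34 genes of mucous and stratified epithelium, of which 24 were measured and 23 were at least 2-fold lower at 24 h, against 1.57% of all genes. Genes such as Krt13, Muc4 and Plet1 passed the count minimum only through the 6 h library. Since the list was also chosen on these values, the count is a description only. The share over all genes is no yardstick for it. Emp1 had 924, 184 and 67 counts at 6, 12 and 24 h, a ratio of 0.115 (0.0885 to 0.148). Krt13, a keratin of the lining of the mouth and gullet, had 194, 34 and 5 counts, a ratio of 0.0409 (0.0131 to 0.0972). Muc4, a membrane mucin, had 219, 57 and 20 counts, and Plet1, a surface protein of epithelial precursors, 331, 70 and 23. The 4 genes were each highest at 6 h and lowest at 24 h. In 21 of the 24 the 12 h level lay between the others, as it did in 34.5% of all genes. This count too is a description only, and that share is no yardstick, since the list was chosen on these values. Sfn, 14-3-3 sigma, was the exception to the 2-fold difference, with 50.1, 40.6 and 43.6 CPM and a ratio of 0.87 (0.756 to 1). The median log2 ratio was -3.09, and -0.98 for 24 h over 12 h. Defining keratins of the basal layer were nearly absent, Krt5 having 2, 2 and 1 and Krt14 1, 1 and 0 counts. Under SD the summed level was 137, 143 and 109 CPM. Gsto1, a glutathione transferase found in many cells and not on the list, fell as well, with 1989, 598 and 265 counts and a slope of -1.13 log2 units per doubling of hours (adjusted p = 0.00196, edgeR, but 0.111 on linear hours).

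Connective tissue genes, 14 also chosen after their values were seen, were high at 6 h alone. Of 13 measured genes 12 were at least 2-fold lower at 24 h, against 1.57% of all genes. The 12 h library was lowest in 11, against 31.1% of all genes. These counts are a description only, since the list was chosen on these values. The genes named next also passed the count minimum only through the 6 h library. Col6a2, of collagen VI, had 154, 10 and 21 counts, Col1a2, of collagen I, 142, 22 and 20, and Igfbp5, which binds growth factors in the matrix, 221, 15 and 18. Summed levels were 104, 14.5 and 26.2 CPM under SASD and 25.9, 31.5 and 42.1 CPM under SD. The part of these tissues in the other differences from 6 h was not tested. In the ratio of 24 h over 12 h, which leaves out the 6 h library, the platelet and red cell medians were 0.35 and 0.76.

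**Figure D3:**
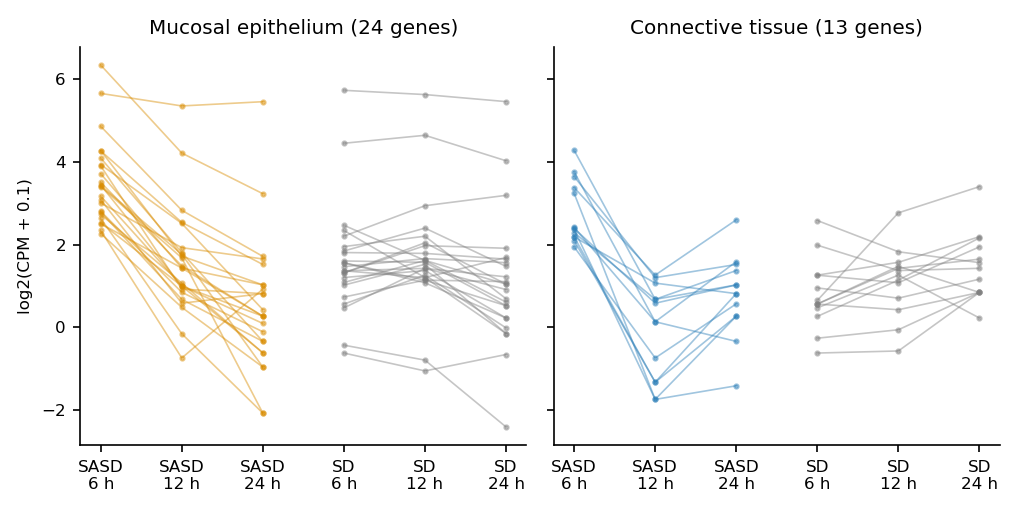
Level of each measured gene of the epithelial list (left, 24 genes) and the connective tissue list (right, 13 genes) as log2 of CPM plus 0.1, in the SASD (coloured) and SD (grey) libraries at 6, 12 and 24 h. The SASD 6 h library is highest, with summed levels of 386 and 104 CPM, on lists chosen after their values were seen.

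White cell genes differed by type. Genes of nonclassical monocytes, which patrol the vessel wall, were lower at 24 h in 14 of 17 (49.9% of all genes were below 0), with 6 at least 2-fold lower (against 1.57% of all genes) and a median of -0.87. The summed level of the list was 2849.8, 2512 and 2783 CPM at 6, 12 and 24 h, nearly level between 6 h and 24 h. All measured genes together summed to 960890, 951910 and 1079000 CPM. The list thus took a smaller share of them at 24 h than at 6 h. Treml4, a receptor of these cells, stood at 30.9, 21.3 and 12.7 CPM, a ratio of 0.412 (0.324 to 0.519). Ear2, a ribonuclease gene, stood at 24.1, 16.1 and 8.72 CPM, a ratio of 0.361 (0.27 to 0.476). Both were highest at 6 h and lowest at 24 h. Fabp4, which carries fatty acids, had 48, 36 and 5 counts and Pparg, a nuclear receptor, 53, 30 and 12. Both are among the 6 at 2-fold and passed the count minimum only through the 6 h library. The share over all genes is no yardstick for them. Klf2, which many white cells express, stood at 729, 755 and 509 CPM, while Itgal and Pou2f2 were higher, with log2 ratios of 0.37 and 0.36. The median for 24 h over 12 h was -0.57. Under SD it was 0.30 for 24 h over 6 h, and Treml4 stood at 19.9, 31.5 and 38.3 CPM.

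Genes of classical monocytes, which move into inflamed tissue, dipped at 12 h. Their median was -0.58 for 12 h over 6 h, with 19 of 20 below 0, against 46.6% of all genes. For 24 h over 6 h it was -0.09, which turned to 0.14 against 6 h and 12 h together. Vcan, versican, stood at 12.6, 2.20 and 30.9 CPM and Lyz2, lysozyme, at 1506, 878 and 1628 CPM. Chil3, a chitinase-like protein of monocytes and young neutrophils, stood at 64.3, 44.9 and 240.1 CPM, a ratio of 3.73 (3.42 to 4.08). Vcan and Chil3 were the 2 members at least 2-fold higher at 24 h, against 0.454% of all genes. The list as a whole was divided, with 9 of 20 above 0 for 24 h over 6 h and 11 below. The interval lay above 1 for 6, against 24.5% of all genes, and below 1 for 8, against 18.9%. Mature neutrophil genes had a median of -0.36 at 12 h and -0.03 at 24 h relative to 6 h. The 12 h level was lowest in 24 of 30, against 31.1% of all genes. The value at 24 h had no stable sign, standing at 0.08 with a mean count of at least 100 and at 0.26 against 6 h and 12 h together. Csf3r, the receptor of the neutrophil growth factor, stood at 908, 668 and 880.1 CPM. Under SD the neutrophil median was 1.30, with 30 of 30 above 0, against 46.7% of all genes. Csf3r stood at 953, 1819 and 1629.6 CPM under SD. Cd177, a neutrophil surface protein not on this list, stood at 23.8, 16.2 and 46.9 CPM under SASD. The lists did not share its direction. For 24 h over 6 h, 14 mature neutrophil genes were above and 16 below 0. Of 7 measured genes of neutrophil granules and precursors 3 were above and 4 below 0, with a median of -0.07.

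T cell genes were highest at 12 h in 24 of 26, against 34.4% of all genes. For 24 h over 6 h, 22 of 26 were below 0, against 49.9% of all genes, with a median of -0.24. Trbc2, a constant part of the T cell receptor, stood at 132, 154 and 83.3 CPM and Il7r, the receptor of interleukin-7, at 284, 431 and 197 CPM. NK and cytotoxic genes were below 0 in 20 of 21, against 49.9% of all genes, with a median of -0.29. With the exon length trend described below subtracted, 17 of 21 were below 0 and the median was -0.13. Klrd1, a NK receptor chain, stood at 50.3, 55.2 and 30.0 CPM and Gzma, granzyme A, at 119, 113 and 85.9 CPM. B cell genes had a median of 0.13 (-0.04 with total-count scaling), none at 2-fold; Pax5, which sets the B cell programme, stood at 1061, 802 and 1399 CPM. Of 11 measured genes of antibody-secreting cells 3 were above 0, the median was -0.11 and the summed level 1129, 1253 and 1098 CPM. The 2 of them at least 2-fold lower, against 1.57% of all genes, were Igha and Jchain. Igha, the heavy chain of IgA, stood at 79.1, 112 and 33.6 CPM and Jchain, which joins IgA units, at 14.0, 17.7 and 5.40 CPM. Both were highest at 12 h and lowest at 24 h, with ratios of 0.425 (0.367 to 0.49) and 0.385 (0.264 to 0.549) for 24 h over 6 h.

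Heat shock genes were higher at 24 h in 14 of 16 (50.1% of all genes were above 0), with a median of 0.44. Hsph1, a large heat shock protein, stood at 40.7, 54.6 and 103 CPM and Hspa8, the constitutive member of the HSP70 family, at 581, 665 and 1014 CPM, both in order of time. Under SD they stood at 59.3, 53.4 and 95.8 and 634, 739.6 and 1082 CPM. The cold-inducible RNA-binding genes stood the other way, Cirbp at 132, 117 and 54.8 CPM, a ratio of 0.416 (0.371 to 0.465), and Rbm3 at 162, 199 and 103 CPM, a ratio of 0.633 (0.581 to 0.69). Immediate early genes were divided, Fos at 32.5, 41.1 and 91.3 CPM and Fosb with 45, 52 and 78 counts being higher and Egr1 at 15.6, 8.50 and 8.44 CPM lower, for a median of -0.04. Of 21 cytokine and chemokine genes 8 were above and 13 below 0, with a median of -0.11. Of these 3 were 2-fold lower, against 1.57% of all genes: Tnf had 69, 33 and 6 counts, Il1a 46, 14 and 6 and Il18 43, 16 and 12. All 3 passed the count minimum only through the 6 h library. Their count is therefore a description only, and the share over all genes is no yardstick for it. Il1a and Il18 are also made by epithelium. Ptgs2, the inducible cyclooxygenase, had 12, 7 and 40 counts and was highest at 24 h, through which alone it passed the count minimum.

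Of clock genes none was at 2-fold, and the median was 0.16, or -0.01 with total-count scaling. For 24 h over 12 h the clock median was -0.02, with 9 of 20 above 0. Nr1d1 had 55, 34 and 18 counts, in order of time. Of glucocorticoid-induced genes Tsc22d3, which mediates part of the hormone's action, stood at 466, 868 and 484 CPM and Fkbp5 at 83.7, 111 and 54.1 CPM, both highest at 12 h; the list had none at 2-fold and a median of -0.01. Under SD they stood at 671, 988 and 652 and 71.6, 141 and 72.9 CPM, again highest at 12 h. Interferon-stimulated genes had a median of -0.16 (0.01 against 6 h and 12 h together). Of 41 measured, 26 were below 0, against 49.9% of all genes, and 2 were at least 2-fold lower, against 1.57%. The interval lay below 1 for 19, against 18.9% of all genes, and above 1 for 9, against 24.5%. For 24 h over 12 h the median was 0.14, with 29 of 41 above 0. Among the higher ones Rsad2 and Isg20 stood at 1992, 1391 and 3048 and 342, 233 and 545 CPM, lowest at 12 h. Among the other genes past 2-fold with a mean count of at least 100, Slc7a5, an amino acid carrier, stood at 91.2, 84.1 and 212 CPM, Tent5c, which lengthens RNA tails, at 2224, 1965 and 4453 CPM, and Slc27a2, a fatty acid carrier, at 10.1, 14.6 and 28.9 CPM. On the lower side Slc15a2, a peptide carrier, stood at 19.2, 13.3 and 5.12 CPM.

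**Figure D4:**
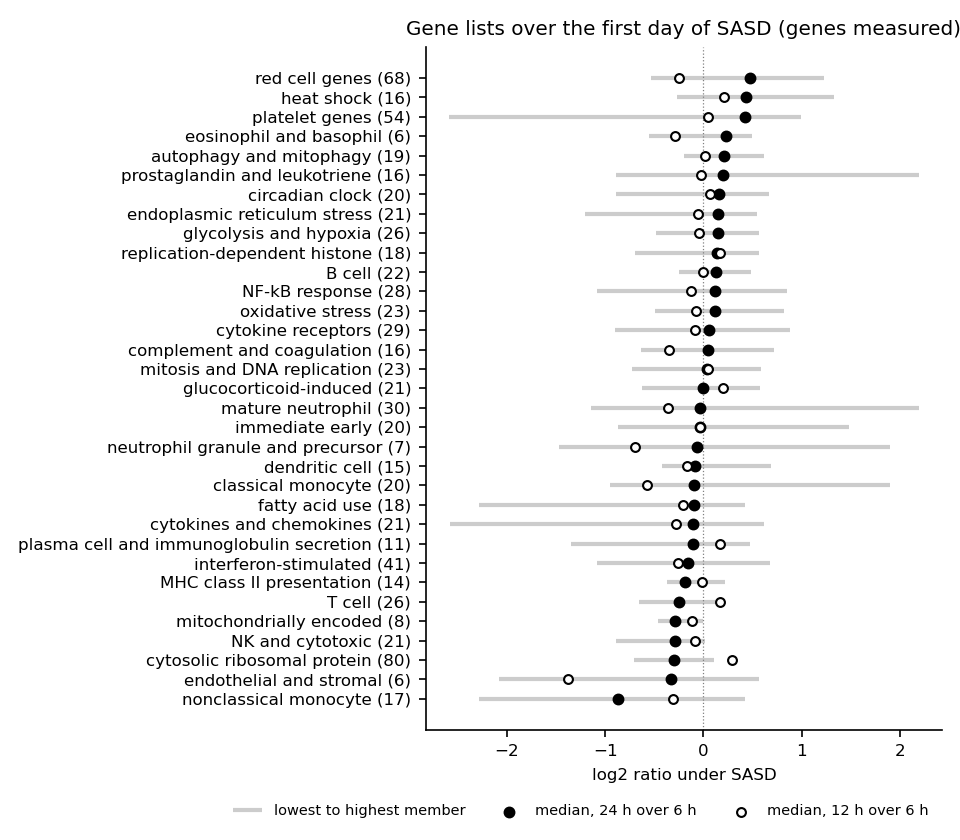
Median log2 ratio to 6 h of SASD at 24 h (filled) and 12 h (open) for each gene list with at least 5 genes measured, without the epithelial and connective tissue lists chosen after their values were seen; grey lines run from the lowest to the highest member at 24 h and the number of genes stands in brackets. Red cell, heat shock and platelet genes have the highest medians at 24 h (0.48, 0.44 and 0.42) and, of the lists drawn, nonclassical monocyte genes the lowest (-0.87).

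Genes with longer exons were higher in the 24 h library. The median log2 ratio of 24 h over 6 h went from -0.18 in the fifth of genes with the shortest exons to 0.15 in the fifth with the longest, while it stayed between 0.01 and 0.03 for 12 h over 6 h. Across 11224 genes, which are not independent, Spearman's rho was 0.308. With this trend subtracted, an alternative added after seeing the data, the platelet median was 0.42 (50 of 54 above 0), the red cell median 0.55 (62 of 68 above 0) and the nonclassical monocyte median -0.72. Ribosomal protein genes, which are short, were below 0 in 78 of 80, against 49.9% of all genes, with a median of -0.30. After subtraction 61 of 80 were below 0, with a median of -0.12. At 12 h all 80 were above their 6 h level, against 53.4% of all genes, with a median of 0.29. Mitochondrially encoded genes were below 0 for 24 h over 6 h in 8 of 8, against 49.9% of all genes. Their median was -0.29, and -0.07 after subtraction.

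**Figure D5:**
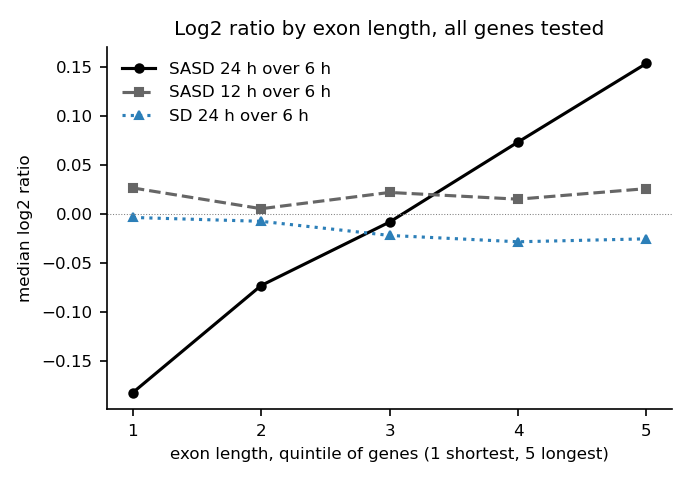
Median log2 ratio (y axis) in 5 equal groups of genes by exon length (x axis, shortest to longest) for SASD 24 h over 6 h, SASD 12 h over 6 h and SD 24 h over 6 h. The first goes from -0.18 to 0.15, and the other lines stay between -0.03 and 0.03.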

How the data were processed

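RNA of pooled blood from 3 mice per group was sequenced in 10 libraries, of which the 3 SASD libraries at 6, 12 and 24 h were analysed and the SD libraries at the same times set beside them. The control library was not used. The authors used Trimmomatic 0.39 for trimming and STAR 2.7.9a for alignment to mm10, per the submitters' processing notes. Read pairs in exons were counted by the authors with featureCounts 2.0.3, per the file headers, with no strand option and without multi-mapping or overlapping reads, so overlapping genes and near-identical copies are uncertain. The deposited table held raw counts of 32285 genes, 127 of them without a symbol. Exon lengths came from GENCODE M21.

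From these counts, TMM factors (edgeR 4.0.16, R 4.3.3) were computed over the 3 SASD libraries, and separately over the 3 SD libraries. The factors were 1.04, 1.05 and 0.923 times the total counts at 6, 12 and 24 h. Log2 ratios used a prior count of 2, and ratios of single genes none, with exact conditional binomial (Clopper-Pearson) 95% intervals (scipy 1.17.1). Read pairs without molecular identifiers are not independent molecules. Trends were tested by edgeR's quasi-likelihood test with Benjamini-Hochberg adjustment, on genes whose mean count was 10 or more. DESeq2 1.42.0, limma 3.58.1, other scalings, count minimums, prior counts and a base of 6 h and 12 h together were alternatives. The ratio and trend steps were tested on simulated data.

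The members and the 35 gene lists were chosen with earlier results of these data known. Of 790 entries, 4 names (Ahsp, Faim3, Gm129 and Rhex) were not matched. The genes named are all measured platelet and red cell genes that a role needs, those among the 15 highest and 15 lowest ratios at a mean count of at least 100, and, from other lists, the 3 with the highest levels and the 3 with the largest ratios. The trend genes and the epithelial and connective tissue genes were named after their values were seen. Some members are counted with their lists but not reported by name here.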

Additional observations from a re-analysis of the deposited data

Results flagged for a closer look

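Platelet genes had a median log2 ratio of 24 h over 6 h of 0.42 under SASD and -0.38 under SD, and red cell genes of 0.48 and -0.23. Nonclassical monocyte genes had a median of -0.87 under SASD and 0.30 under SD. In each of these lists the medians of the 2 methods had opposite signs in these libraries. With 1 library per method and time the difference was not tested.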

How the results depend on the processing

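With 1 library per group no library could be left out of a group. No paired analysis was possible because each group is a single library. For 24 h over 6 h the count of 227 genes at 2-fold was 518 (107 higher, 411 lower) with a mean count of at least 10, 45 (13 and 32) with at least 100, and 1920 (556 and 1364) with no minimum. Requiring the whole counting interval past 2-fold left 64 (9 and 55). Total-count scaling gave 25 higher and 298 lower, and a base of 6 h and 12 h together gave 83 higher. For 12 h over 6 h, 204 genes became 491, 49, 1629 and 61 under the same minimums of 10 and 100, no minimum and the interval rule, and for 24 h over 12 h, 397 became 708, 151, 1748 and 90. Fewer or more genes were tested in each of the minimums by construction. Total-count scaling took the platelet median to 0.26 (43 of 54 above 0) and the red cell median to 0.31 (52 of 68), both moving with the median of all genes. Under the other alternatives run these 2 medians stayed between 0.39 and 0.58. The trend test called 20 genes by edgeR, 12 by DESeq2 (0 rising), 15 by limma-voom (0 rising), 7 on linear hours (5 falling) and 88 with no count minimum (24 rising, 64 falling); of the 20, 12, 15, 7 and 20 were called again. Krt6b and Mrc2 turned direction against the base of 6 h and 12 h together, to 0.068 and 0.28, and the cause was not tested. Of all 3881 values of named genes under the alternatives, 472 moved at least as far as their counting interval reaches from its centre. That reach was taken on the log2 scale. Genes with few counts, such as the red cell genes at 2-fold, have intervals that reach well under 2-fold, and a difference between pools of mice cannot be measured here at any depth.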
